A study of Mus musculus with 23 samples.

Results

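The imprinted genes Igf2, H19, Igf2r, Cdkn1c, Plagl1, Peg3, Mest, Grb10 and Ndn, which act on fetal growth or on cell-cycle exit and lie outside the Dlk1-Meg3 domain, were read by gene symbol from RNA sequencing of mouse lung. All 9 were found among the 24411 genes of the deposited tables. The study compared wild-type (WT) mice with Rarres1 knockout (KO) mice on a C57BL/6 background, kept in barrier housing without treatment, in 23 libraries of total RNA in 7 groups. Lungs of embryonic day 19.5 (E19.5) came from WT and KO embryos with 3 libraries each and no sex given, and lungs of 10-month-old males from both genotypes with 3 libraries each. Lungs of 18-month-old males came as 3 WT libraries, 5 libraries of KO lung outside a tumour (animals 1, 2, 3, 6 and 7 by their codes) and 3 libraries of KO lung tumours (animals 1, 3 and 6). Nothing in the labels says how the KO allele was made, in which cells a tumour arose or whether animals were pooled.

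In genomic imprinting, only the copy of a gene inherited from one parent is transcribed, and the other copy is kept silent by DNA methylation or chromatin marks laid down in the germ line. Many such genes set the size of the fetus and placenta. Those expressed from the father's copy (here Igf2, Plagl1, Peg3, Mest and Ndn) mostly promote growth or act in development, while several expressed from the mother's copy (H19, Igf2r, Cdkn1c and Grb10) restrain it. The RNA was not separated by allele here, so every value below is the sum over both copies. Bulk lung RNA also cannot tell fewer cells of a type from less RNA per cell.

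For 7 of the 9 genes RefSeq promoter windows of build GRCm38.p6 were at hand, 250 bases before to 50 after an annotated start. H19 and Cdkn1c had none in that table. Shown here are the windows of Peg3, Mest and Plagl1. They were picked because their parental methylation mark is known to lie at the promoter, on the mother's copy. All 9 genes fell after birth, and these 3 fell by unlike amounts (below). Capitals mark CG dinucleotides, the bases that carry such methylation.
Peg3: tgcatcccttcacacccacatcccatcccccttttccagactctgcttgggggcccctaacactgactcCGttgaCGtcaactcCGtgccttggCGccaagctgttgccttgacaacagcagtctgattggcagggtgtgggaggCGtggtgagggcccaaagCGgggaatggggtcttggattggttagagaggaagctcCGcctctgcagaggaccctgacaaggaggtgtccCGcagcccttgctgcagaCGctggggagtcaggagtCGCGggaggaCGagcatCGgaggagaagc
Mest: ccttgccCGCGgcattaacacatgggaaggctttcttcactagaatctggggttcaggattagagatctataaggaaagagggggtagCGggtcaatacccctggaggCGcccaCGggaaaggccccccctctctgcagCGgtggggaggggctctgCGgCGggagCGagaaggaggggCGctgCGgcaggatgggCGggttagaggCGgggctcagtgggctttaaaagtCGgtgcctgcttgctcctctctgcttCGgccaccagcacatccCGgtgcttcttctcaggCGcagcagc
Plagl1: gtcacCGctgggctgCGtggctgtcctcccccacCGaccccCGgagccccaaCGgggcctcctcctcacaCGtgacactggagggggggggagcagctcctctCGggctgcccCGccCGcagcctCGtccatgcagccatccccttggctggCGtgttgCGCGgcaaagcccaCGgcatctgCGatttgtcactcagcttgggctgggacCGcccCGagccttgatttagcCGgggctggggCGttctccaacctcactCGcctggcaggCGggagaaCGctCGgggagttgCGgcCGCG
The Peg3 window lies on the minus strand at chr7:6730370-6730669 and holds 13 CG. The Mest window lies on the plus strand at chr6:30737800-30738099 and holds 17, and the Plagl1 window lies on the plus strand at chr10:13090582-13090881 and holds 26. The table has 3 Mest windows. A second one differs from that printed by a shift of 3 bases and also holds 17, and the third, at an upstream start (chr6:30733256-30733555), holds 8. Which start the Mest RNA came from was not measured. The median over 32851 windows of that length, those of 1 chromosome left out, was 7. The letters GGGCGG, read on both strands, occurred in 35.7% of these windows and in those of Mest and Plagl1 but not in that of Peg3. Methylation was not measured in the files used here.

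H19 is a long non-coding RNA and the host of a microRNA, miR-675, whose 2 arms lie within an H19 exon on the minus strand of chromosome 7. Their mature RefSeq sequences are printed because counts of H19 can include this precursor, with the seed (bases 2 to 8) in capitals.
miR-675-5p: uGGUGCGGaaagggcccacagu
miR-675-3p: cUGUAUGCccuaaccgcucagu
The seeds of the arms differ. The table's own entry for Mir675 was listed at 0 in every library.

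In GRCm38.p6, 5 of the 9 genes lie on chromosome 7. Igf2 (142650768 to 142666816) and the non-coding H19 (142575530 to 142578146) are neighbours on its minus strand, and Cdkn1c (143458339 to 143461059) follows on the same strand. Peg3 (6703892 to 6730462, minus strand) and Ndn (62348277 to 62349928, plus strand) lie elsewhere on it. Igf2r is on chromosome 17 (12682406 to 12769706, minus strand), Grb10 on chromosome 11 (11930499 to 12037428, minus strand), Plagl1 on chromosome 10 (13090832 to 13131694, plus strand) and Mest on chromosome 6 (30733506 to 30748466, plus strand). Exons on the opposite strand overlap 912 bases of Mest (Copg2), 625 bases of Cdkn1c (Gm44732) and 98 bases of Igf2 (Igf2os). Smaller overlaps are 71 and 70 bases of H19 (Gm27483 and Gm27786) and 38 bases of Plagl1 (Gm27741). Whether counting used strand is not given in the sources used here, so reads of these partners may be included. On the same strand, exons of Gm49394 share 3596 of the 5723 exonic bases of Igf2. Gm49394 has no entry among the counted genes, and strand cannot separate its reads from those of Igf2.

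Total counts were between 23.7 and 46.6 M per library (M for 1000000). Rarres1 reads went with the genotype labels: WT groups held 105, 130 and 187 reads at the 3 ages, KO lungs held 2, 0 and 0, and the tumours held 1. Markers of lung epithelium (Nkx2-1, Sftpc and others, 7 genes) and of lung mesenchyme (Tcf21, Pdgfra and others, 7 genes) were detected in every group. In each group 0 of them were at 0 in all of its libraries. WT embryo 3 stood apart in squamous epithelium markers (Krt4, Krt13 and others), with a mean log2(CPM + 1) of 5.88 against 0.65 to 0.96 in the other 5 embryos, and in skeletal muscle markers (4.86 against 1.89 to 3.54). Heart muscle markers lay between 1.20 and 7.02 across the postnatal libraries. CPM stands for counts per 1000000 counts.

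All 9 genes were far higher in embryonic than in postnatal lung, in every library. The lowest of the 6 embryos exceeded the highest of the 17 postnatal libraries 35.4-fold for H19, 20.5-fold for Mest, 17.2-fold for Igf2 and 14.2-fold for Peg3. The same ratio was 6.48 for Grb10, 6.01 for Cdkn1c, 3.70 for Plagl1, 2.88 for Igf2r and 1.94 for Ndn. Together the 9 genes took 0.407% to 0.543% of all counts in embryos and 0.0193% to 0.036% in postnatal lung and tumours. Levels below are the deposited FPKM (fragments per kilobase of gene and 1000000 fragments), which can be set side by side between genes.

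**Figure D1:**
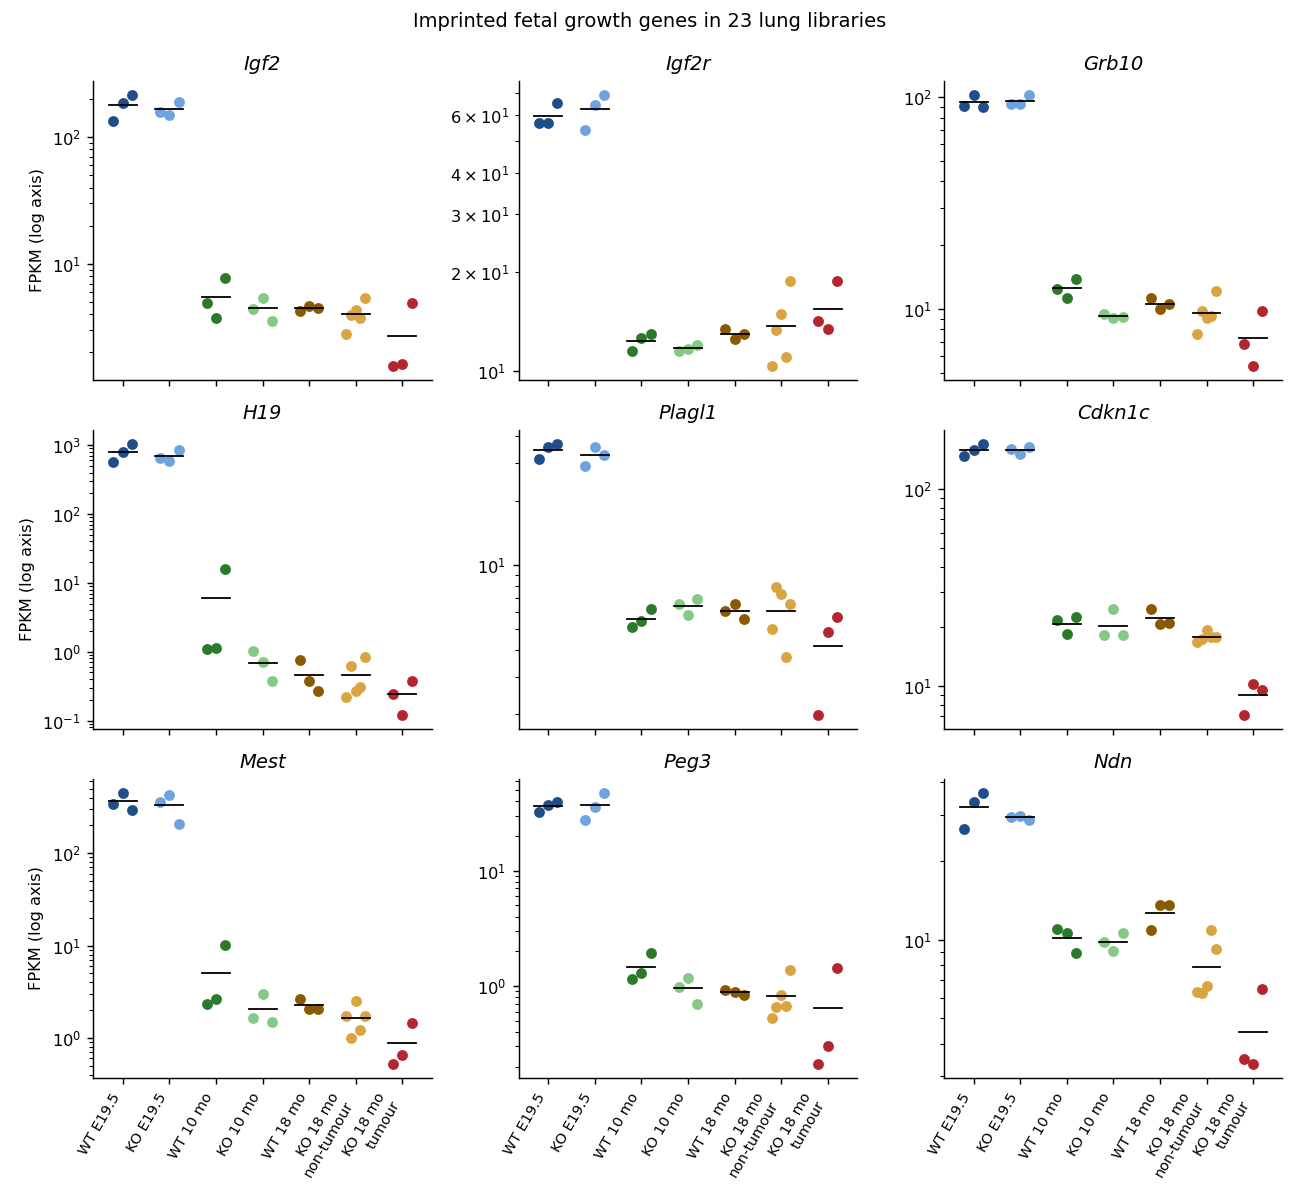
Deposited FPKM of each of the 9 genes (log axis, scale differs between panels) in each of the 23 libraries, by group; points are libraries in the order of their numbers and lines are group means. In each panel the 6 embryonic libraries lie above the 17 postnatal ones, by 1.94-fold at the least (Ndn) and 35.4-fold at the most (H19).

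Igf2, the insulin-like growth factor that drives fetal growth, stood at 133, 185 and 216 FPKM in WT embryos 1, 2 and 3, and at 157, 148 and 190.2 FPKM in KO embryos. At 10 months it was 4.88, 3.77 and 7.76 FPKM in WT and 4.41, 5.41 and 3.53 FPKM in KO. At 18 months it was 4.22, 4.67 and 4.50 FPKM in WT, 2.82, 3.93, 4.34, 3.77 and 5.42 FPKM in KO non-tumour lung, and 1.56, 1.63 and 4.92 FPKM in tumours 1, 3 and 6. The 2 embryonic groups overlapped each other, each pair of neighbours among the postnatal groups overlapped too, and tumours 1 and 3 lay below every other library.

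H19 was the most abundant of the 9 in embryos, at 567, 784 and 1053 FPKM in WT and 645, 587 and 860.5 FPKM in KO. In 10-month lung it was 1.08, 1.13 and 16.01 FPKM in WT and 1.02, 0.70 and 0.37 FPKM in KO. In 18-month lung it was 0.75, 0.37 and 0.27 FPKM in WT, 0.22, 0.63, 0.27, 0.31 and 0.84 FPKM in KO non-tumour lung, and 0.24, 0.12 and 0.38 FPKM in tumours. From the most abundant gene of the set it thus fell to 1.13 FPKM or less in 16 of the 17 postnatal libraries, and WT 3 at 10 months, with 935 reads, stood apart from them.

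Igf2r, the receptor that takes IGF2 to the lysosome for breakdown, stood between 54.1 and 69.4 FPKM in the 6 embryos. It was 11.5, 12.7 and 12.97 FPKM in WT and 11.6, 11.7 and 12.0 FPKM in KO at 10 months. At 18 months it was between 12.5 and 13.5 FPKM in WT, between 10.4 and 18.8 FPKM in KO non-tumour lung and between 13.5 and 18.8 FPKM in tumours. Its postnatal groups overlapped with their neighbours, and tumours held its highest postnatal mean, 15.5 ± 2.90 FPKM (SD, n = 3). Igf2 exceeded its clearance receptor in each embryo, by an FPKM ratio of 2.30 to 3.30, and was below it in each postnatal library (0.11 to 0.598).

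Grb10, an adaptor protein that binds and dampens the insulin and IGF receptors, was 90.8, 103 and 89.8 FPKM in WT embryos and 92.8, 92.8 and 102 FPKM in KO embryos. At 10 months it was 12.4, 11.2 and 13.9 FPKM in WT and 9.48, 9.08 and 9.10 FPKM in KO, without overlap. In 18-month lung it was 11.3, 9.94 and 10.5 FPKM in WT, 7.58, 9.74, 9.03, 9.27 and 12.2 FPKM in KO non-tumour lung, and 6.79, 5.36 and 9.77 FPKM in tumours. KO non-tumour lung overlapped both other groups of that age, while the 3 tumours all lay below the WT lungs.

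Cdkn1c encodes p57, an inhibitor of cyclin-dependent kinases that takes cells out of the cycle. It stood at 148, 158 and 170.0 FPKM in WT embryos and 159, 150.3 and 163 FPKM in KO embryos. In 10-month lung it was 21.6, 18.3 and 22.3 FPKM in WT and 18.1, 24.5 and 18.2 FPKM in KO. At 18 months it was 24.6, 20.6 and 21.0 FPKM in WT, 16.8, 17.3, 19.2, 17.8 and 17.6 FPKM in KO non-tumour lung, and 7.10, 10.2 and 9.57 FPKM in tumours. These last 3 groups did not overlap, in that order, and Cdkn1c was the most abundant of the 9 genes by mean FPKM in WT and KO lung at 10 months.

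Plagl1, a zinc-finger transcription factor known to act on other imprinted genes, was between 29.2 and 37.0 FPKM in the embryos. It lay between 5.10 and 6.94 FPKM in the 6 libraries at 10 months, and between 5.61 and 6.59 FPKM in WT at 18 months. KO non-tumour lung at 18 months spanned 3.72 to 7.89 FPKM and the tumours 1.98, 4.86 and 5.73 FPKM. Tumour 1 was the lowest. Postnatal groups next to each other by mean overlapped, although all tumours lay below all KO lungs of 10 months.

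Mest, an enzyme of the alpha/beta hydrolase fold, was 345, 453 and 292 FPKM in WT embryos and 362, 424 and 209 FPKM in KO embryos. At 10 months it was 2.35, 2.64 and 10.2 FPKM in WT and 1.64, 3.00 and 1.47 FPKM in KO. In 18-month lung it was 2.65, 2.07 and 2.08 FPKM in WT, 1.74, 1.00, 2.48, 1.22 and 1.71 FPKM in KO non-tumour lung, and 0.52, 0.65 and 1.46 FPKM in tumours. WT 3 at 10 months again stood above every other postnatal library, and tumours 1 and 3 below all of them.

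Peg3, a zinc-finger protein of growth and maternal behaviour, was 32.4, 37.1 and 39.4 FPKM in WT embryos and 27.3, 35.6 and 47.4 FPKM in KO embryos. In 10-month lung it was 1.16, 1.3 and 1.93 FPKM in WT and 0.98, 1.18 and 0.70 FPKM in KO. At 18 months it was 0.93, 0.89 and 0.83 FPKM in WT, 0.53, 0.66, 0.83, 0.67 and 1.38 FPKM in KO non-tumour lung, and 0.21, 0.30 and 1.42 FPKM in tumours. The 3 WT libraries at 18 months all lay below the 3 at 10 months.

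Ndn (necdin), a protein of the MAGE family that restrains proliferation, differed least between stages. It was 26.5, 33.5 and 36.6 FPKM in WT embryos and 29.6, 29.9 and 28.8 FPKM in KO embryos. At 10 months it was 10.96, 10.6 and 8.88 FPKM in WT and 9.77, 9.04 and 10.6 FPKM in KO. In 18-month lung it was 10.9, 13.6 and 13.6 FPKM in WT, 6.29, 6.23, 6.64, 10.9 and 9.21 FPKM in KO non-tumour lung, and 3.49, 3.34 and 6.47 FPKM in tumours. WT lung at 18 months held the 2 highest postnatal values and tumours 1 and 3 the lowest.

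The comparison of 10-month with E19.5 lung asks how these genes change as the lung matures. In WT, 9 of 9 fell (edgeR quasi-likelihood test, adjusted p under 0.05 over all genes tested), where 31.2% of all genes tested were called lower. In KO, 9 of 9 fell as well, against 29.4% of all genes. For all 9 the FPKM of the 2 stages did not overlap in either genotype, which held for 37.9% of genes in WT and 36.3% in KO in the direction of a fall. The median log2 fold change of the 9 was -2.88 in WT and -3.33 in KO, beside 0.00 over all genes in both.

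The size of the fall spread widely over the set. In WT it was -7.00 ± 1.499 for H19 (log2 fold change ± SE, n = 3 against 3, edgeR adjusted p = 0.0162), from a mean of 801 to one of 6.07 FPKM. Mest followed with -6.10 ± 0.81 (edgeR adjusted p = 0.00310), Igf2 with -4.97 ± 0.38 (0.000233) and Peg3 with -4.57 ± 0.21 (4.28e-06). Cdkn1c fell by 2.88 on the log2 scale, Grb10 by 2.86, Plagl1 by 2.57, Igf2r by 2.22 and Ndn by 1.60, with SE between 0.09 and 0.13. A group of 4 genes with steep falls thus stood beside 5 with shallower ones, and both groups hold genes of either parental expression.

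Without WT 3 at 10 months the WT change was -9.44 for H19 (edgeR adjusted p = 7.07e-05) and -7.11 for Mest (1.01e-05). With all libraries, limma on log2(FPKM + 0.1) gave -8.09 for H19 and edgeR with a replicate block gave -7.94. The KO change, with no such library, was -9.90 ± 0.38 for H19, -7.30 ± 0.44 for Mest, -5.22 ± 0.31 for Peg3 and -5.15 ± 0.20 for Igf2. The other 5 genes fell in KO by 3.33 (Grb10), 2.91 (Cdkn1c), 2.36 (Igf2r), 2.29 (Plagl1) and 1.53 (Ndn) on the log2 scale. The mesenchyme markers were lower on average after birth as well, with a mean log2(CPM + 1) of 8.17 to 8.33 in the embryos and 6.46 to 6.93 at 10 months. Of these 7 markers, 6 were called lower and 1 higher in WT, and 6 lower and 0 higher in KO.

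Other marker lists moved with stage too. In WT, 11 of 12 proliferation genes were lower (median log2 fold change -2.49), as were 4 of 4 tested cartilage genes (-6.37) and 7 of 7 erythroid genes (-1.67), while 5 of 5 leukocyte genes were higher (2.504). In KO, 9 of 12 proliferation genes were lower and 1 higher, 4 of 4 cartilage and 4 of 7 erythroid genes were lower, and 5 of 5 leukocyte genes were higher. Endothelial genes were higher in 4 of 5 in WT and 3 of 5 in KO. Of 7 lung epithelium genes, 4 were higher and 1 lower in each genotype, and of 7 heart muscle genes 0 were called. Over all genes 31.2% were lower and 31.6% higher in WT, and 29.4% lower and 31.1% higher in KO. The part of any of these lists in the fall of the 9 genes was not tested.

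**Figure D2:**
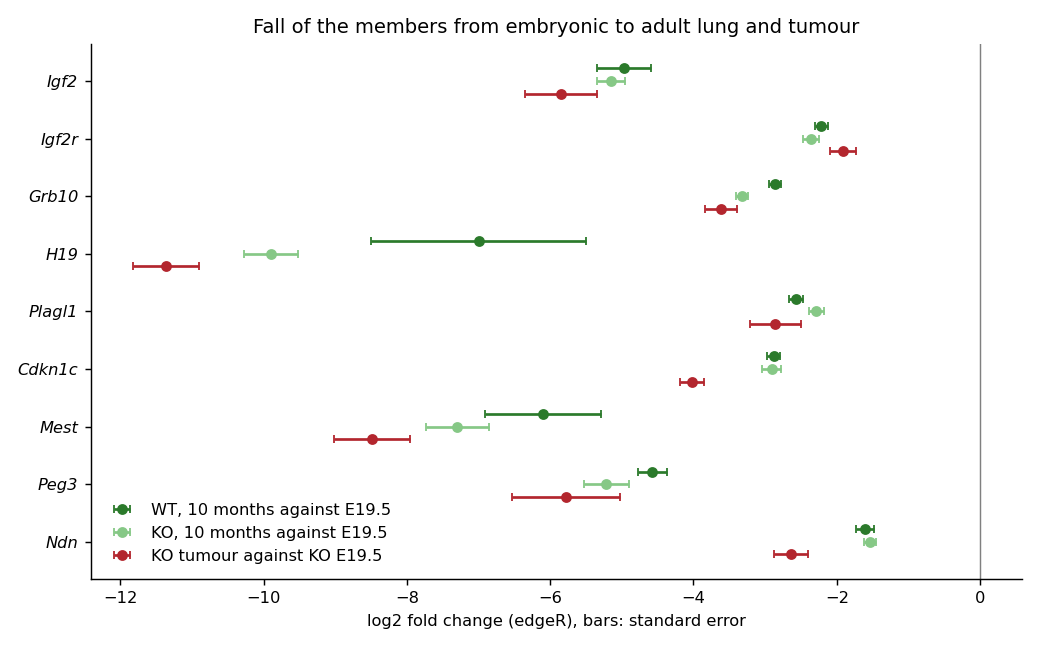
Log2 fold change (edgeR, horizontal axis) of each gene from E19.5 to 10 months in WT and in KO, and in KO tumours against KO E19.5 lung; bars are standard errors and the grey line marks no change. All 27 values lie left of 0, from -11.36 (H19 in tumours) to -1.53 (Ndn in KO).

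H19 and Igf2 share an imprinting control region and enhancers, and are expressed from opposite parental copies. The FPKM ratio of H19 to Igf2 lay between 3.96 and 4.87 in the 6 embryos. It lay between 0.06 and 0.30 in 16 of the 17 postnatal libraries and was 2.06 in WT 3 at 10 months. H19 therefore fell more than its neighbour in each genotype, and the library with the high H19 was also the one with the highest postnatal Igf2.

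**Figure D3:**
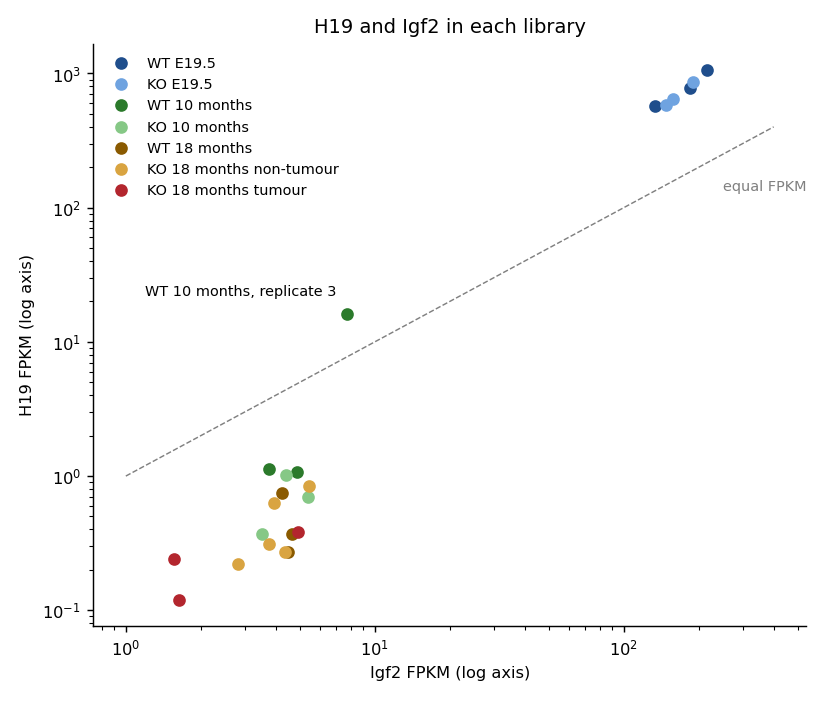
H19 against Igf2 FPKM in each of the 23 libraries, both on log axes, coloured by group; on the dashed line both are equal. The 6 embryos lie above the line, 16 postnatal libraries lie below it, and WT 3 at 10 months lies above it with a ratio of 2.06.

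WT 3 at 10 months was the highest of the 17 postnatal libraries for 5 of the 9 genes (55.6%): H19, Mest, Igf2, Peg3 and Grb10. Of the genes tested at 10 months, 7.38% were highest in that library. Its H19 was 14.2-fold above the next postnatal library and its Mest 3.41-fold, while Igf2 was 1.43-fold, Peg3 1.36-fold and Grb10 1.11-fold above. It was not the highest for Cdkn1c, Plagl1, Igf2r or Ndn. Its H19 remained below the lowest embryo, at 16.01 against 567 FPKM.

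That library also had the highest squamous epithelium markers of the 17, with a mean log2(CPM + 1) of 0.77 against 0.09 to 0.49. It was the highest too for RNA-binding and chromatin proteins of fetal growth (Igf2bp1, Hmga2 and others), at 2.23 against 1.90 to 2.17. Its mesenchyme markers stood at 6.93 against 5.44 to 6.90 and its lung epithelium markers at 10.9 against 10.6 to 11.1. The part of these in its H19 and Mest was not tested.

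Whether the fall differed between the genotypes was asked by the interaction of genotype and age. Of the 9 genes, 0 passed (edgeR), against 0.156% of all genes. An unadjusted p under 0.05 was found for 1 of 9, against 7.6% of all genes, and DESeq2 called 1 of 9, against 0.804% of all genes. That gene was Grb10 in both counts, with a further fall in KO of -0.47 ± 0.12 on the log2 scale (edgeR adjusted p = 0.271, DESeq2 adjusted p = 0.0236). H19 showed -2.91 ± 1.42 (edgeR adjusted p = 0.704), and this value was -0.46 without WT 3 at 10 months.

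The other genes around this set also changed with age. Of 48 other imprinted genes tested in WT, 28 fell and 9 rose, with a median log2 fold change of -0.53. For this and the next lists the shares of all genes in WT were 31.2% lower, as above, and 31.6% higher. Zdbf2 fell by 4.30 and Gnas, the stimulatory G protein locus, by 1.26 on the log2 scale, while Peg13 rose by 1.78. Airn, the antisense RNA of the Igf2r locus, fell by 2.17, but none of its exons overlap those of Igf2r.

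Of 17 genes of the IGF axis, 11 fell and 4 rose in WT. Igf1, the postnatal growth factor, fell by 2.28 in lung and the receptor substrate Irs1 by 1.45, while Igfbp7, a binding protein, rose by 1.12 on the log2 scale. Among RNA-binding and chromatin proteins of fetal growth, 8 of 8 tested genes fell. They include Igf2bp1 (-3.29), Igf2bp2 (-2.39) and Igf2bp3 (-4.95), which bind Igf2 messenger RNA, and the growth factor regulator Plag1 (-2.50).

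Of 12 genes that maintain or erase methylation marks, 10 fell and 0 rose in WT, among them the methyltransferases Dnmt3a (-1.78) and Dnmt3b (-1.55) and the imprint-protecting cofactor Trim28 (-0.80). Of 6 other cyclin-dependent kinase inhibitors, 3 rose and 1 fell. Cdkn2a rose by 4.75 ± 0.81 and Cdkn1a by 0.58 ± 0.10, and Cdkn1b fell by 0.47 on the log2 scale. In KO the counts were 28 lower and 10 higher of 48 imprinted genes, 10 lower and 4 higher of 17 in the IGF axis, 7 lower of 8, 9 lower of 12, and 2 higher with 1 lower of 6, beside 29.4% lower and 31.1% higher over all genes.

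The likeness of expression profiles over the 23 libraries was measured as the root mean square difference between log2(CPM + 1) values, each gene centred on its own mean, among 13854 genes. It is a description only, since 6 embryos and 17 postnatal libraries make up each profile. Igf2 and Peg3, on the same chromosome but far apart, were each other's nearest gene, at 0.234. Next to Igf2 stood Agt (0.412), the angiotensin precursor, and Fbn2 (0.462), a fibrillin of fetal elastic fibres.

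The gene nearest to H19 was Mest, at 1.12, followed by Col25a1 and Cacna1g. Mest itself was nearer to Col25a1 (0.527), Cacna1g (0.659) and Agt (0.736). For Cdkn1c these were Mum1l1 (0.229), Igf2bp2 (0.27) and Tmem255a (0.277), and Grb10 came a few places later, at 0.307. Grb10 had Tmem255a (0.211), Col6a2 (0.226) and Adamts19 (0.227) nearest.

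Plagl1 was nearest to Igf2bp2 (0.304), Robo1 (0.317) and Lamc1 (0.317). Igf2r was nearest to Lamc1 (0.177), Tchh (0.206) and Col4a1 (0.212), a laminin and a collagen of basement membranes being among them. Ndn was nearest to Htra3 (0.258), Efs (0.277) and Col13a1 (0.286).

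Loss of Rarres1 was compared with WT at each age, with some of the same libraries as in the comparisons of ages, so these are not independent. At E19.5, 0 of the 9 genes passed (edgeR, 0 with an unadjusted p under 0.05 and 0 called by DESeq2). The shares of all genes were 0% called and 0.941% at that unadjusted p. The 9 log2 fold changes lay between -0.18 ± 0.25 (H19) and 0.08 ± 0.12 (Igf2r), and for all 9 the groups overlapped. Cdkn1c was at 158 ± 11.3 FPKM in WT and 158 ± 6.53 FPKM in KO (SD, n = 3 each). Without WT embryo 3, the one with squamous and muscle markers, the H19 value was 0.07, and that of Igf2 was 0.08 in place of -0.09 ± 0.18.

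At 10 months 1 of the 9 fell in KO, Grb10, where 0.946% of all genes were called lower. Its mean was 12.5 ± 1.32 FPKM in WT and 9.22 ± 0.225 FPKM in KO (SD, n = 3 each), which is -0.44 ± 0.08 on the log2 scale (edgeR adjusted p = 0.0342). Grb10 and H19 were lower in KO without overlap, 2 of 9 genes, against 11.6% of all genes. An unadjusted p under 0.05 was found for 2 of 9 genes (Grb10, and Peg3 at -0.62 ± 0.26), against 17.4% of all genes.

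The Grb10 call did not hold in a fit over all 23 libraries (edgeR adjusted p = 0.418), with limma on log2(FPKM + 0.1) (0.0725), or without any one of 5 of the 6 libraries (0.0630 to 0.115), while its log2 fold change stayed between -0.51 and -0.36. H19 stood at -3.11 ± 1.48 (edgeR adjusted p = 0.381) and Mest at -1.32 ± 0.77 (0.459). Without WT 3 these were -0.66 and -0.30. Of the mesenchyme markers 2 of 7 fell in KO at this age, Fgf10 and Pdgfra, against 0.946% of all genes. The list's mean log2(CPM + 1) was 6.80 to 6.93 in WT and 6.46 to 6.70 in KO. The part of this list in the Grb10 difference was not tested.

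At 10 months 1.52% of all genes were called in either direction. Among the related lists, 0 of 42 other imprinted genes, 1 of 17 genes of the IGF axis and 1 of 6 other kinase inhibitors were called. The first was Igfbp3, an IGF-binding protein, lower by -0.54 ± 0.09 (edgeR adjusted p = 0.0234). The second was Cdkn1a, the p21 inhibitor, lower by -1.06 ± 0.10 (edgeR adjusted p = 0.00227).

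At 18 months 0 of the 9 passed between KO non-tumour lung and WT (edgeR), 2 had an unadjusted p under 0.05 and DESeq2 called 1. The shares of all genes were 0.0776% called by edgeR, 8.04% at that unadjusted p and 0.901% called by DESeq2. Ndn was at 7.86 ± 2.12 FPKM in KO (SD, n = 5) and 12.7 ± 1.60 FPKM in WT (SD, n = 3), a log2 fold change of -0.75 ± 0.18 (edgeR adjusted p = 0.233, DESeq2 adjusted p = 0.0153). Its groups overlapped through animal 6 alone, whose 10.9 FPKM reached the lowest WT library.

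Cdkn1c was at 17.7 ± 0.902 FPKM in KO and 22.04 ± 2.18 FPKM in WT, -0.36 ± 0.10 on the log2 scale (edgeR adjusted p = 0.321). It was the 1 gene of the 9 whose groups did not overlap, against 2.65% of all genes. Of the 42 other imprinted genes and the 17 genes of the IGF axis tested, 0 were called. The mesenchyme list stood at 6.28 to 6.64 in KO and 6.65 to 6.76 in WT, without overlap. Heart muscle markers stood at 2.15 to 4.13 in KO and 4.88 to 5.13 in WT, also without overlap. Skeletal muscle markers, likewise apart, stood at 0.37 to 0.60 in KO and 0.72 to 0.80 in WT. Genes that maintain or erase methylation marks were apart in the other direction, at 3.96 to 4.18 in KO and 3.87 to 3.94 in WT. Of the genes tested, 0 of 7 mesenchyme, 0 of 6 heart muscle, 0 of 5 skeletal muscle and 0 of 13 methylation mark genes were called. The part of these lists in the lower Ndn and Cdkn1c values was not tested.

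**Figure D4:**
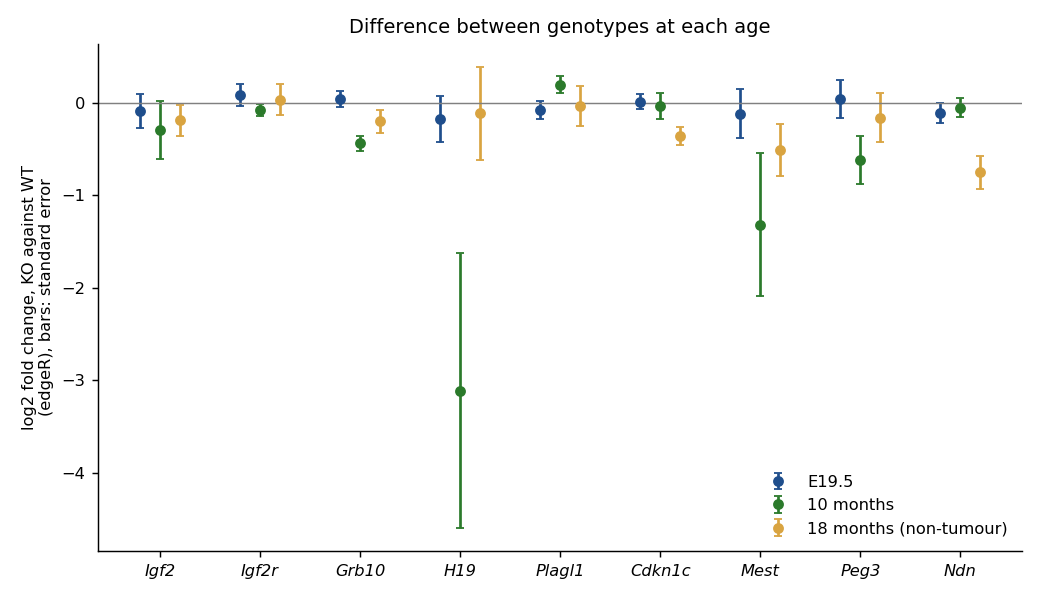
Log2 fold change of KO against WT (edgeR, vertical axis) for each gene at E19.5, 10 months and 18 months (non-tumour lung); bars are standard errors. The values at E19.5 lie between -0.18 and 0.08, and at 10 months H19 (-3.11) and Mest (-1.32) have the widest bars.

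Ageing from 10 to 18 months was compared within each genotype. In WT 0 of the 9 passed (edgeR, 3 with an unadjusted p under 0.05, DESeq2 0), with 0% of all genes called and 5.44% at an unadjusted p under 0.05. Those 3 were Peg3 at -0.73 ± 0.19, Ndn at 0.33 ± 0.12 and Grb10 at -0.24 ± 0.09 on the log2 scale, with edgeR adjusted p from 0.840 to 0.891. Peg3 and H19 were lower at 18 months without overlap, 2 of 9 genes, against 6.04% of all genes. In KO non-tumour lung 0 of the 9 passed (edgeR, 0 with an unadjusted p under 0.05, DESeq2 0), with 0% and 5.06% of all genes. Here the 9 values lay between -0.69 ± 0.48 (H19) and 0.18 ± 0.17 (Igf2r).

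The lung tumours were compared with KO non-tumour lung of the same age. Cdkn1c was the 1 gene of 9 that fell, from 17.7 ± 0.902 FPKM (SD, n = 5) to 8.97 ± 1.65 FPKM (SD, n = 3), where 6.6% of all genes were called lower. Its log2 fold change was -0.90 ± 0.14 (edgeR adjusted p = 0.00475), in a fit that took tumours and lungs of the same animal as independent. With the animal as a block, over the codes that tumours and lungs share, it was -0.94 with an edgeR adjusted p of 0.0581. All 3 tumours lay below all 5 lungs for this gene alone among the 9, against 13.6% of all genes, and each lay below the lung of its own animal. Lung 6 carries that number in its code and another in its title, so the pairing of animal 6 here and below rests on the code.

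Ndn was at 4.43 ± 1.77 FPKM in tumours and 7.86 ± 2.12 FPKM in lung, -0.75 ± 0.26 on the log2 scale (edgeR adjusted p = 0.0869), and it was called by DESeq2 (0.0294) and in a fit over all 23 libraries (0.00448). An unadjusted p under 0.05 was found for these 2 genes of 9, against 29.3% of all genes. Igf2r was the gene with a value above 0, at 0.26 ± 0.19 (edgeR adjusted p = 0.393). The median of the 9 was -0.52, beside -0.01 over all genes.

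The tumours were unlike each other. Tumours 1 and 3 lay below the lung of their own animal in 7 and 9 of the 9 genes, and tumour 6 in 2 of 9 (Cdkn1c and Ndn). Tumours 1 and 3 each lay below all 5 lungs in 7 genes and tumour 6 in 1. For single tumours no share over all genes was worked out, so these counts are a description only. Peg3 went from 0.53 to 0.21 FPKM in animal 1 and from 0.83 to 0.30 FPKM in animal 3, but from 0.67 up to 1.42 FPKM in animal 6. Mest went from 1.74 to 0.52 FPKM and from 2.48 to 0.65 FPKM, and from 1.22 to 1.46 FPKM in animal 6.

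Without tumour 6, 5 of the 9 were called lower by edgeR, where 14.3% of all genes were called lower in that fit. They were Cdkn1c, Igf2 (-1.20, adjusted p = 0.00688), Ndn (-1.05, 0.0155), Peg3 (-1.54, 0.0221) and Mest (-1.37, 0.0360). The endothelial markers stood at 7.54, 7.57 and 8.97 in tumours (mean log2(CPM + 1), in ascending order, tumour 6 highest) and at 8.88 to 9.38 in the 5 lungs. The mesenchyme markers stood at 5.44, 5.77 and 6.50, again with tumour 6 highest, and at 6.28 to 6.64 in the lungs, and 3 of 7 fell (Tcf21, Wnt2 and Fgf10).

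Lung epithelium markers stood at 10.64, 11.1 and 10.55 in tumours 1, 3 and 6 and at 10.7 to 11.1 in the lungs. This mean hides changes in both directions: of the 7 genes 3 rose and 3 fell, with a median log2 fold change of -0.62. Over all genes 7.2% were called higher and 6.6% lower. Erythroid markers were at 3.37 in tumour 6, at 3.63 and 3.81 in tumours 1 and 3 and at 3.61 to 5.17 in the lungs. Mesothelium markers were at 2.81, 1.92 and 3.44 in tumours 1, 3 and 6 and at 3.28 to 5.14 in the lungs, and 2 of 4 fell, with a median log2 fold change of -1.78 over the 4. The part of these cells in the lower values was not tested.

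**Figure D5:**
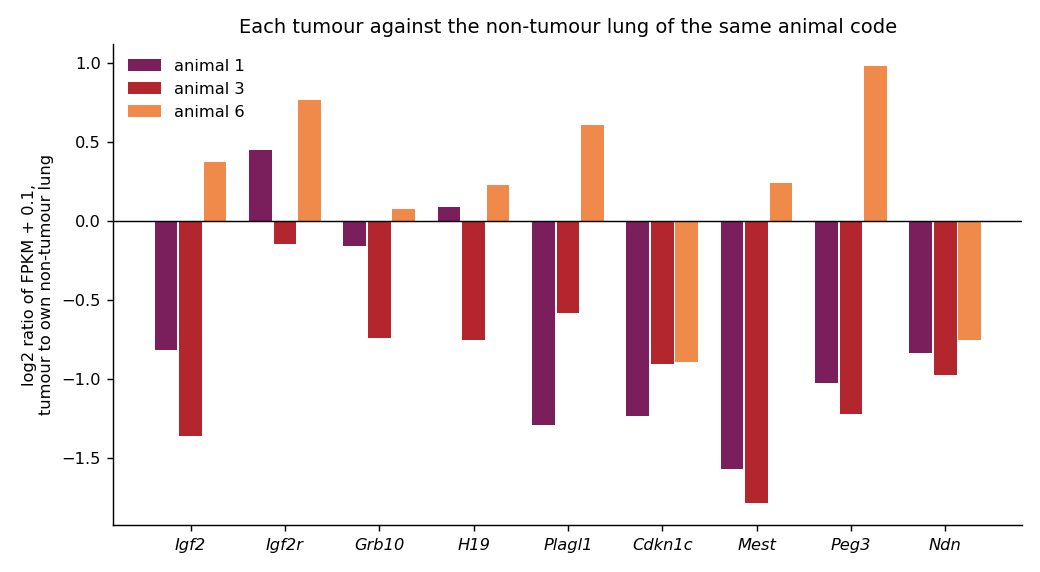
Log2 ratio of FPKM + 0.1 in each tumour to that in the non-tumour lung of the same animal code (vertical axis), for each gene; bars start at 0 and there is 1 library of each kind per animal, so no error is drawn. Bars of animals 1 and 3 lie below 0 for most genes, those of animal 6 above 0 for 7 of the 9, and all 3 lie below 0 for Cdkn1c and Ndn.

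Of 43 other imprinted genes tested in tumours, 11 rose and 3 fell, beside 7.2% of all genes called higher and 6.6% called lower. The steepest rises were those of the Dlk1-Meg3 domain, with Meg3 at 6.23 ± 0.74, Rian at 5.79 ± 0.38 and Mirg at 6.51 ± 0.70 on the log2 scale. Of the 9 genes studied here 0 rose. In the IGF axis 2 of 17 rose, Igf1 by 2.31 ± 0.39 and Irs2 by 0.78 ± 0.20, and 4 fell, among them Igfbp6 (-1.80 ± 0.27) and Igfbp5 (-1.35 ± 0.35). Of the other kinase inhibitors 2 of 6 rose, Cdkn2a by 2.31 ± 0.45 and Cdkn1a by 1.11 ± 0.24, while Cdkn1c fell.

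Set against embryonic lung of the same genotype, the tumours were low in all 9 genes, where 18.0% of all genes were called lower. In 9 of 9 genes the 3 tumours lay below the 3 KO embryos, against 32.9% of all genes. The log2 fold change ran from -11.36 ± 0.46 for H19 (edgeR adjusted p = 8.98e-05) to -1.91 ± 0.18 for Igf2r (0.000712). Igf2 was at 2.70 ± 1.92 FPKM in tumours and 165 ± 22.05 FPKM in KO embryos (SD, n = 3 each), -5.85 ± 0.50. Cdkn1c stood at -4.03 ± 0.17 and Ndn at -2.64 ± 0.23. Without tumour 6, Igf2 stood at -6.53, and Peg3 at -7.02 in place of -5.78 ± 0.75. This comparison shares its KO embryos with the KO comparison of 10 months with E19.5, in which Cdkn1c stood at -2.91 and Ndn at -1.53. None of the 9 was at an embryonic level in any tumour: the highest tumour value as compared with the lowest KO embryo was 18.8 against 54.1 FPKM for Igf2r and 6.47 against 28.8 FPKM for Ndn.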

How the data were processed

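RNA of 23 mouse lung libraries was analysed from the deposited tables of 24411 genes. The authors made the expected counts and the FPKM (2 decimals) with Trimmomatic 0.36, STAR 2.5.2b and RSEM 1.3.0 on build mm10, per the submitters' processing notes; how multi-mapping reads were set and whether strand was used is not given in the sources used here. All sample columns were used. Groups follow the labels. Expected counts as deposited by the authors were rounded to whole numbers and tested with edgeR 4.0.16 in R 4.3.3, on the 2 groups compared: TMM scaling, default filterByExpr filter, robust quasi-likelihood F test, Benjamini-Hochberg adjustment over all genes tested, called at an adjusted p under 0.05. Adjusted p-values come from edgeR except where DESeq2 or limma is named beside them. The SE is the absolute log2 fold change over the square root of F. The interaction was fitted over 4 groups. The tests were checked on simulated data.

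Levels between genes were set side by side in FPKM, which the authors scaled by gene length. Marker list levels are means of log2(CPM + 1). Promoter and microRNA sequences and coordinates are from RefSeq GRCm38.p6, overlaps from a GRCm38 annotation. Shares over promoter windows leave out those on chromosome 18. Alternatives were DESeq2 1.42.0, no low-count filter, 1 fit over all 23 libraries, limma 3.58.1 on log2(FPKM + 0.1) and log2(FPKM + 1), a replicate block and leaving out each library. All 28 within-group library pairs differed by more than counting error (chi-square per degree of freedom 6.72 to 228 over genes with at least 20 counts). The labels say only that replicates are separate samples, so p-values measure the spread between these. Tumours and non-tumour lungs 1, 3 and 6 share animal codes. They are read as pairs where a tumour is set against its own lung and in the replicate block. The reported test of tumours against KO lung took all its libraries as independent. The titles number non-tumour lungs 6 and 7 as 4 and 5, so that the pair of animal 6 rests on the code. The correlations of the deviations of these tumours and lungs were 0.499, -0.013 and 0.032. Elsewhere the numbers do not pair libraries.

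The 9 genes, the gene lists and the tests were chosen with earlier results of these data known. Beside the 9, up to 4 genes of each list with the smallest adjusted p and the 3 genes with the nearest profile (mean of at least 1 CPM, predicted genes left out) are named. The whole-genome profiles of the series were not analysed here. Python 3.11.15, pandas 2.3.3 and matplotlib 3.10.9 were used.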

Additional observations from a re-analysis of the deposited data

How the results depend on the processing

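The fall of all 9 genes from E19.5 to 10 months, in WT and in KO, and their low level in tumours against KO embryos kept direction and call under each alternative run, with counts of 9 of 9. The larger pseudocount of log2(FPKM + 1) shrank the falls of low genes: to -3.93 for Peg3 in WT, -8.68 for H19 and -4.25 for Peg3 in KO, and -9.12 for H19, -7.44 for Mest and -4.56 for Peg3 in tumours against KO embryos. A replicate block on that last comparison gave -6.60 for Igf2 and -7.015 for Peg3. Of 1188 recomputed values of single genes, 1118 kept direction and call, 52 changed sign, 8 gained and 10 lost a call; of those that changed sign, 0 were called in either fit and the largest reported size was 0.35. At 10 months the count of 1 (Grb10) became 0 in the fit over all 23 libraries, with limma at both pseudocounts and with a replicate block (0.113), and ranged from 0 to 1 when a library was left out. At 18 months DESeq2 called 1 in place of 0, and for the interaction 1 in place of 0. For tumours against KO lung the count of 1 became 2 with DESeq2 and with all 23 libraries, 0 with the animal as a replicate block, and 1 to 5 when a library was left out. The replicate block changed no other call of the 9 genes. Where the causes of these changes are not given by fewer libraries, the cause was not tested.

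Changes of sign, on the log2 scale: at E19.5 limma gave -0.007 for Cdkn1c at both pseudocounts and -0.011 and -0.01 for Peg3. The replicate block gave -0.038 for Igf2r and 0.108 for Plagl1 at 18 months, and 0.036 for Plagl1 between KO at 18 and 10 months. Grb10 in that comparison was 0.007 with all 23 libraries and 0.036 and 0.034 with limma. With a library left out, the E19.5 ranges were -0.256 to 0.076 (Igf2), -0.017 to 0.182 (Igf2r), -0.027 to 0.082 (Grb10), -0.379 to 0.069 (H19), -0.14 to 0.001 (Plagl1), -0.032 to 0.063 (Cdkn1c), -0.33 to 0.12 (Mest) and -0.21 to 0.22 (Peg3). At 10 months they were -0.498 to 0.048 (Igf2) and -0.209 to 0.048 (Cdkn1c), and at 18 months -0.084 to 0.115 (Igf2r), -0.43 to 0.45 (H19) and -0.16 to 0.10 (Plagl1). For tumours Peg3 ranged from -1.54 to 0.16. For WT at 18 against 10 months Igf2 ranged from -0.492 to 0.053, and for KO Grb10 from -0.079 to 0.062, Plagl1 from -0.227 to 0.028 and Mest from -0.581 to 0.042. For the interaction they were -0.39 to 0.15 (Igf2), -0.203 to 0.045 (Cdkn1c) and -0.036 to 0.18 (Ndn).

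Limits: groups hold 3 to 5 libraries, and depth leaves 7 to 71 reads of H19 in postnatal libraries other than WT 3 at 10 months, so its postnatal folds are imprecise. With FPKM the median log2 fold change of all genes was -0.11 for tumours against KO embryos, where edgeR gave 0.015. Its size was less than 0.1 in the other 8 comparisons.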

Other observations

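The genes that stood out most in WT 3 at 10 months were looked up after its high H19 and Mest had been seen, so they are a description. Ranked by FPKM + 0.1 over the highest other postnatal library, H19 (13.1-fold) and Mest (3.33-fold) were first and second among all named genes, followed by Cacna1g (1.89), Agt (1.89), Nlrp12 (1.83), Fbn2 (1.82), Eln (1.79), Cxcr2 (1.74), Capn6 (1.61) and Adamts19 (1.54). Of these 10 genes, 8 were higher in every embryo than in that library, the exceptions being the leukocyte genes Nlrp12 and Cxcr2. The same share over all genes was not worked out. A related one is the 37.9% of genes with all WT libraries of 10 months below all WT embryos. Eln, the elastin of the lung's elastic fibres, stood at 112 FPKM there, at most at 62.6 FPKM in the other postnatal libraries and at 2018 FPKM or more in the embryos.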
